A study of Mus musculus with 9 samples.

Results

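Serpins are a family of proteins named for the inhibition of serine proteases. An inhibitory serpin exposes a reactive centre loop as bait; the protease cuts the loop, stays covalently bound and is dragged across the serpin and distorted, so that each inhibitor molecule is used once. Some members inhibit cysteine proteases instead, and others, such as collagen chaperones and hormone carriers, inhibit none. Clade A serpins are mostly secreted plasma proteins, many made by the liver in the acute phase, whereas clade B serpins act mostly inside epithelial cells and leukocytes. In airway linings they are known as the counterweight to proteases of neutrophils, mast cells and the epithelium itself.

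The family was taken as every gene identifier of the deposited expression table whose mouse symbol begins with Serpin, which gave 61 genes of 21930 identifiers. The table holds poly(A) RNA sequencing of nasal mucosa from wild-type mice in 3 groups of 3 libraries: control, for which the labels give the treatment as none; eCRS, treated with papain; and eCRS_Exo, treated with papain and with exosomes labelled MSC-Exos. Papain, a plant cysteine protease used to set up a mouse model of eosinophilic chronic rhinosinusitis, was given intranasally, 20 µg per dose in a volume of 20 µl, from day 0 to day 2 and again from day 7 to day 11. Exosomes, small vesicles released by cells, were given by the same route on days 7 to 11, and mice were killed on day 12. The protocol text names PBS as the alternative to exosomes. The labels give no age or strain and do not say whether each library is a separate mouse, and a p-value here therefore covers variation from library to library that may be technical.

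Levels are given in FPKM, fragments counted per length of transcript and per sequencing depth, as deposited. The number of fragments behind each value was not estimated here, so no counting error is given. The libraries differed in the level of their typical gene: scaling factors set by the median ratio of 16486 genes ran from 0.71 in eCRS library 2 to 1.75 in eCRS_Exo library 1, and the 3 control factors were between 0.763 and 0.765. Every comparison was therefore made on the deposited values and again on values divided by these factors (scaled). Markers of olfactory sensory neurons (6 of 6) and sustentacular cells (5 of 5) passed the filter on low values, and 4 of 5 secretory markers did, the exception being Scgb1a1. The olfactory neuron markers differed between eCRS and eCRS_Exo: their sum was 331 to 415 FPKM in controls, 142 to 389 FPKM in eCRS and 483 to 1163 FPKM in eCRS_Exo. Scaled, the sums were 432 to 544, 199 to 364 and 410 to 729. Against eCRS 6 of 6 rose as deposited and 5 of 6 scaled, where 63% and 13.4% of all tested genes rose. Against control 5 rose as deposited and 0 scaled, where 84.3% and 12.3% of all tested genes rose. Their part in the Serpin values of eCRS_Exo was not tested. In such bulk tissue, fewer cells of a type and less RNA per cell cannot be told apart.

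Most Serpin genes were silent or nearly so in this tissue. Of the 61, 12 were listed at 0 in all 9 libraries: Serpina3a, Serpina3j, Serpina5, Serpina16, Serpinb3d, Serpinb6d, Serpinb9c, Serpinb9d, Serpinb9e, Serpinb9f, Serpinb9g and Serpinb13. Another 25 were above 0 somewhere but never reached 1 FPKM, and 4 reached 1 FPKM in 1 or 2 libraries. The remaining 20 reached 1 FPKM in at least 3 libraries, the filter for testing, which is 32.8% of the family against 58.1% of all identifiers. By clade, 4 of 24 clade A genes, 11 of 26 clade B genes and 5 of 11 others were tested. After scaling, Serpina3i joined them as the 21st, and it passed through the eCRS libraries alone. A library held between 17 and 22 Serpin genes at 1 FPKM or more.

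The family's summed level was carried by few genes, the 3 highest in a library holding 48.3% to 61.6% of it. The sum was 248, 261 and 260 FPKM in the control libraries, 496, 335 and 499 FPKM in the eCRS libraries and 659, 579 and 462 FPKM in the eCRS_Exo libraries. Scaled, the sums were 325, 342 and 340 in controls, 464, 472 and 513 with papain, and 378, 363 and 393 with papain and exosomes. On the scaled values the 3 groups thus did not overlap, with eCRS highest and eCRS_Exo between it and control, whereas on the deposited values eCRS and eCRS_Exo overlapped. The scaled order of eCRS_Exo and control rested largely on Serpina3n, at most 18.8 in controls and at least 68.5 in eCRS_Exo. It did not describe the family as a whole: of 21 genes tested scaled, 13 had a log2 change below 0 against control and 8 above.

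**Figure D1:**
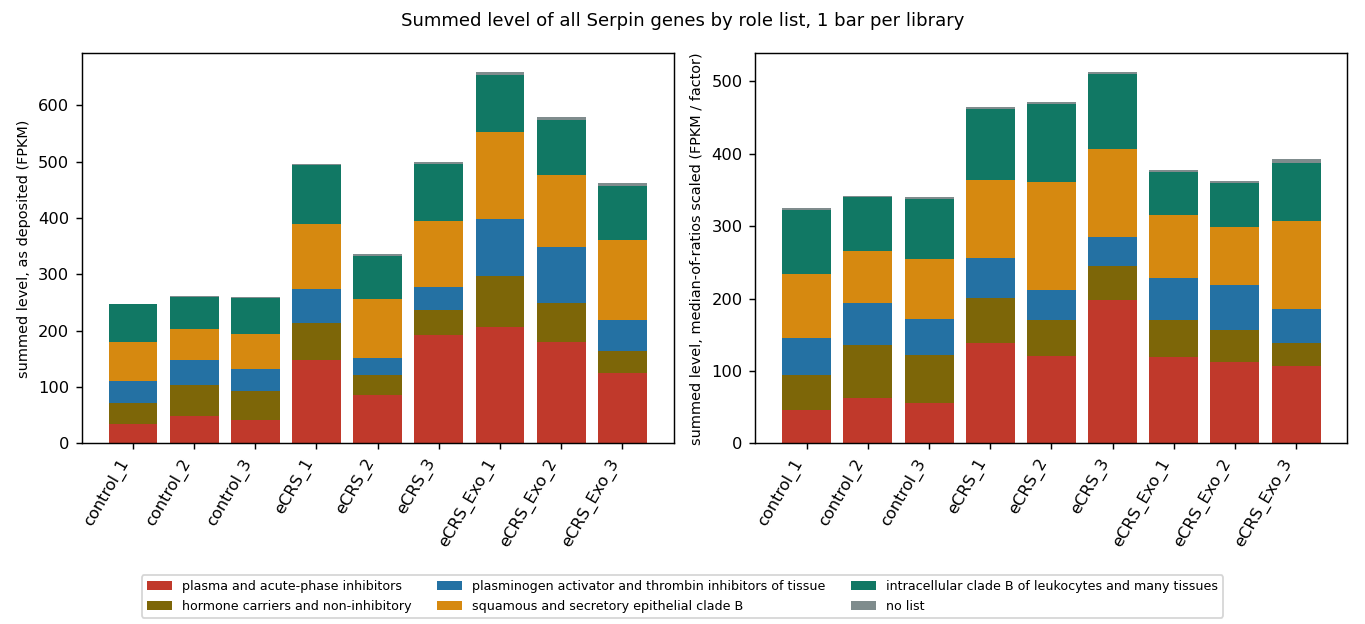
Summed level of all 61 Serpin genes in each library, as deposited in FPKM (left) and after median-of-ratios scaling (right), with 1 bar per library stacked by role list. The plasma and acute-phase block grows from 35.2 to 48.1 FPKM in the control libraries to 86.2 to 193 FPKM in the eCRS libraries.

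Papain against control, a comparison of the disease model with untreated mucosa, raised a small set of Serpin genes, Serpina3n, Serpina3g, Serpinb1a and Serpinb11, and lowered Serpinb7. On the deposited values 4 of the 20 tested genes were higher and 1 was lower in eCRS by limma at an adjusted p under 0.05, where 3.01% of all 12738 genes tested were higher and 0.518% lower. On the scaled values 5 of 21 were higher and 1 was lower, where 5.77% of 12507 genes were higher and 4.15% lower. Serpina3i is among the 5 and had to be higher in eCRS, the only group that carried it past the filter. Without it 4 of 20 were higher. When control library 2 or 3 or eCRS library 2 or 3 was also left out, 3 were, since Serpinb11 then missed the threshold. The median log2 change of the tested Serpin genes other than Serpina3i was 0.28 as deposited and 0.12 scaled, beside 0.19 and -0.00399 for all tested genes. All fold changes here are on the scale of log2(value + 1), which understates the change of genes of low level.

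Papain with exosomes against papain alone, which asks how exosome treatment altered the model, gave different counts on the 2 scales, while Serpinb1a, Serpina3g and Serpinb5 were lower on both. As deposited, 4 of 20 Serpin genes were higher (Serpine2, Serping1, Serpina9 and Serpina1e) and 3 were lower (Serpinb1a, Serpina3g and Serpinb5), where 63% of all tested genes were higher and 0.73% lower. Scaled, none of 21 was higher by limma (1 at an unadjusted p under 0.05) and 7 were lower, where 13.4% of all tested genes were higher and 16.2% lower. Beside the 3 genes that fell on both scales, Serpina3i, Serpinb6a, Serpinb8 and Serpinb9 fell on the scaled values, Serpina3i having passed the filter only through eCRS, and without it 6 of 20 were lower. The last 3 were close to the threshold: Serpinb6a was lost without any single library other than eCRS_Exo library 3, Serpinb9 without any eCRS library or eCRS_Exo library 1 or 2, and Serpinb8 without control library 3, eCRS library 2 or 3 or eCRS_Exo library 1 or 2. The scaled count of lower genes was 3 without eCRS library 3, 4 without eCRS_Exo library 1 or 2 and 11 without eCRS_Exo library 3. The median log2 change of the Serpin genes other than Serpina3i was 0.28 as deposited and -0.34 scaled, beside 0.56 and -0.01 for all tested genes.

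Papain with exosomes against control left Serpina3n, Serpina3g and Serpina9 higher on both scales. As deposited, 12 of 20 Serpin genes were higher, where 84.3% of all tested genes were, and none was lower by limma (0 at an unadjusted p under 0.05), where 0.526% of all tested genes were. Scaled, 3 of 21 were higher and 4 were lower (Serpinb7, Serpinb5, Serpinf1 and Serpini1), where 12.3% of all tested genes were higher and 15.6% lower. The 4 became 2 without control library 2, control library 3 or eCRS_Exo library 1. The median log2 change, again without Serpina3i, was 0.57 as deposited and -0.22 scaled, beside 0.76 and 0.01 for all tested genes. The 3 comparisons share groups of libraries, so their values are given side by side below and not as independent results.

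**Figure D2:**
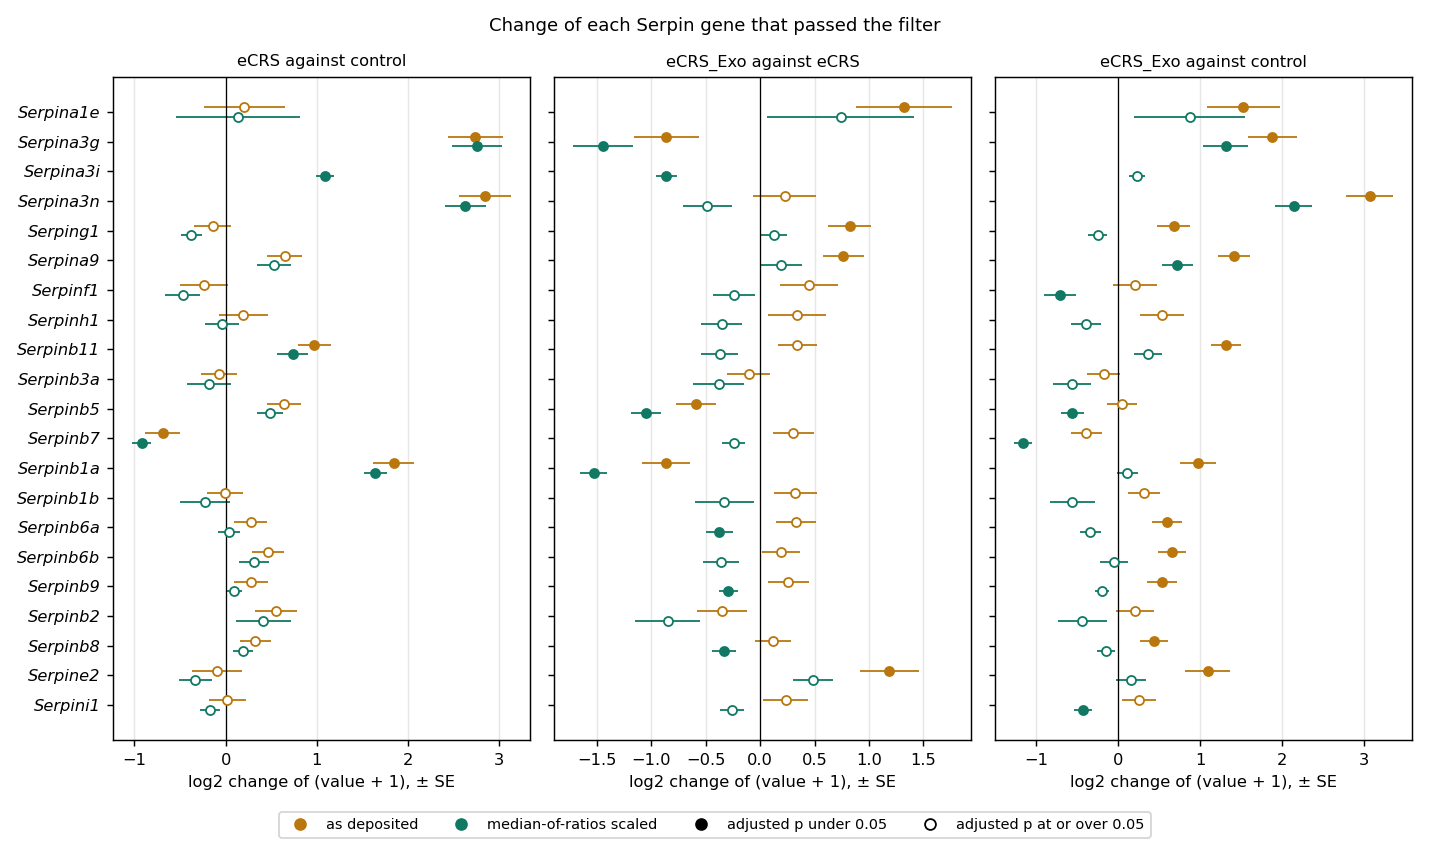
Log2 change of (value + 1) with its standard error for each of the 21 tested Serpin genes in the 3 comparisons, as deposited (brown) and scaled (green), with filled points for an adjusted p under 0.05. Serpina3n and Serpina3g lie farthest to the right in eCRS against control, and most green points lie left of the brown ones in both eCRS_Exo comparisons.

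The list of plasma and acute-phase inhibitors, which also takes in the intracellular Serpina3g, held the largest papain changes. Of its 22 genes, 4 were tested as deposited and 5 scaled. In eCRS against control 2 rose as deposited and 3, with Serpina3i, rose scaled, where 3.01% and 5.77% of all tested genes rose. Serpina3i passed the filter through eCRS alone and had to be higher there, and without it Serpina3n and Serpina3g remained on both scales. By limma none fell (at an unadjusted p under 0.05, 0 as deposited and 1 scaled), where 0.518% and 4.15% of all tested genes fell. Most genes of this list lie in 1 cluster on chromosome 12 (GRCm38 chr12:103614786-104414329), which holds 23 Serpin genes, 4 of them tested as deposited. The levels along that cluster were uneven: Serpina3n stood at its end, Serpina1e, Serpina9 and Serpina3g lay between 0.223 and 12.7 FPKM, and most others were near or at 0.

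**Figure D3:**
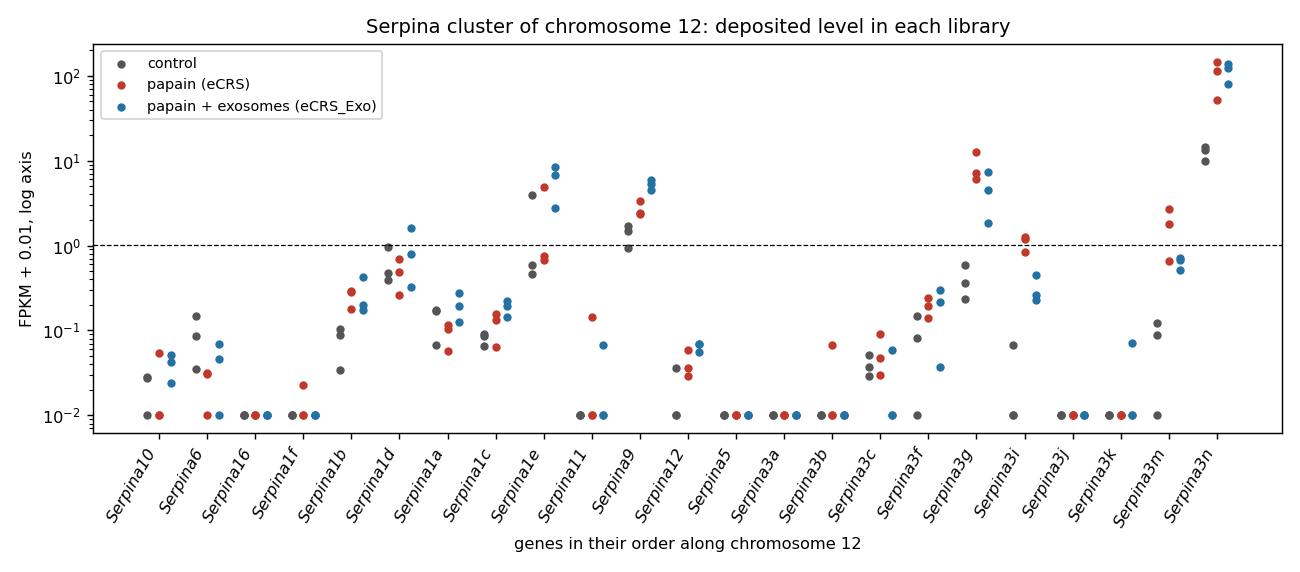
Deposited level of the 23 Serpin genes of the chromosome 12 cluster in every library, in their order along the chromosome, as FPKM + 0.01 on a log axis, with 1 FPKM dashed. The Serpina3g, Serpina3i, Serpina3m and Serpina3n points of the eCRS libraries all lie above the control points, while 4 genes of the cluster are listed at 0 throughout.

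Serpina3n, a secreted acute-phase protein of the antichymotrypsin type that inhibits chymotrypsin-like proteases and granzyme B, lies at chr12:104406729-104414329 (+ strand). Its deposited level was 9.95, 14.3 and 13.3 FPKM in the control libraries, 112, 52.1 and 147 FPKM in the eCRS libraries and 137, 125 and 80.6 FPKM in the eCRS_Exo libraries. All 6 papain-treated libraries were far above all controls, and the eCRS and eCRS_Exo ranges overlapped. The log2 change in eCRS against control was 2.85 ± 0.29 (SE, adjusted p = 2.44e-06, limma) as deposited and 2.63 ± 0.23 (adjusted p = 0.000214) scaled. In eCRS_Exo against control it was 3.07 ± 0.29 (adjusted p = 5.26e-07) and 2.14 ± 0.23 (adjusted p = 0.000793). No change was called between eCRS_Exo and eCRS, where the value was 0.22 ± 0.29 as deposited (adjusted p = 0.483) and -0.48 ± 0.23 scaled (adjusted p = 0.133).

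Serpina3g, also called Spi2A, is an intracellular relative that inhibits lysosomal cysteine cathepsins, enzymes of the papain family. It lies at chr12:104236245-104241939 (+ strand). Controls held 0.351, 0.577 and 0.223 FPKM, the eCRS libraries 7.08, 6.01 and 12.7 FPKM, and the eCRS_Exo libraries 7.30, 4.54 and 1.81 FPKM. The gene was thus under 1 FPKM in every control, passing the filter through both treated groups, and eCRS_Exo lay above control in each library while overlapping eCRS as deposited. Scaled, the eCRS levels of 6.62, 8.46 and 13.1 all exceeded the eCRS_Exo levels of 4.19, 2.84 and 1.54. The papain change was 2.74 ± 0.30 as deposited (adjusted p = 6.02e-06) and 2.75 ± 0.27 scaled (adjusted p = 0.000425). With exosomes against papain alone it fell by 0.86 ± 0.30 as deposited (adjusted p = 0.0188) and the scaled change was -1.44 ± 0.27 (adjusted p = 0.00675). The deposited call was lost without eCRS library 3 (adjusted p = 0.106) or eCRS_Exo library 3 (adjusted p = 0.0956), and also when all genes were tested without a filter (adjusted p = 0.096). Against control, eCRS_Exo was still higher, by 1.88 ± 0.30 (adjusted p = 9.35e-05) and 1.31 ± 0.27 (adjusted p = 0.00907).

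Serpina3i and Serpina3m, neighbours of the same gene group, showed the same order of groups at lower levels. Serpina3i was at 0.0572, 0 and 0 FPKM in controls, 1.24, 0.822 and 1.20 FPKM in eCRS and 0.435, 0.219 and 0.253 FPKM in eCRS_Exo. Serpina3m was at 0.112, 0 and 0.0774 FPKM, then 1.81, 0.654 and 2.70 FPKM, then 0.671, 0.709 and 0.505 FPKM. For Serpina3i the 3 groups did not overlap, while for Serpina3m eCRS library 2 lay among the eCRS_Exo values. Since the filter would admit Serpina3i through the eCRS libraries alone, both genes were read from the fit of all genes without a filter. As deposited, Serpina3i was there higher by 1.03 ± 0.09 with papain, and Serpina3m by 1.28 ± 0.24. With exosomes against papain alone Serpina3i was lower by 0.68 ± 0.09 and Serpina3m by 0.67 ± 0.24. Both genes were picked for a high group mean among members under the filter, and that mean was in eCRS. A test of eCRS against the other groups would favour this outcome, so the values are a description and no p-value is given. Because the authors' treatment of reads shared between copies is not given in the sources used here, the share of 75-base transcript windows that another gene also holds was computed: 1.5% for Serpina3n, 7.7% for Serpina3g, 6.6% for Serpina3i and 9.7% for Serpina3m.

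The start regions of Serpina3n, Serpina3g and Serpina3i are printed because these 3 neighbours rose with papain. Each window runs from 250 bases before to 50 after a RefSeq start site on the + strand of GRCm38.p6: chr12:104406458-104406757 for Serpina3n, chr12:104235897-104236196 for Serpina3g and chr12:104262872-104263171 for Serpina3i. Capitals mark matches to TTC and GAA with 4 bases between them, a spacing known for STAT6.
Serpina3n: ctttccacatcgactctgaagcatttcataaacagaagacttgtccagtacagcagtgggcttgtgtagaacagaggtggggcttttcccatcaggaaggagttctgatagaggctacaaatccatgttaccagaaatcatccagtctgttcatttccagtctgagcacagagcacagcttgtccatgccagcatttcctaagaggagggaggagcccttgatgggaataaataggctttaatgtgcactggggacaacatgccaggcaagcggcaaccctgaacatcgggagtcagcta
Serpina3g: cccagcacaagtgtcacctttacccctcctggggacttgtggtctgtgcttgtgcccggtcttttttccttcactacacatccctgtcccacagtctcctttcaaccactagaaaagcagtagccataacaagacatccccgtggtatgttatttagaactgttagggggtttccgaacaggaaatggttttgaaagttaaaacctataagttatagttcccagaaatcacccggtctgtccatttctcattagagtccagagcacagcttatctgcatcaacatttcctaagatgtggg
Serpina3i: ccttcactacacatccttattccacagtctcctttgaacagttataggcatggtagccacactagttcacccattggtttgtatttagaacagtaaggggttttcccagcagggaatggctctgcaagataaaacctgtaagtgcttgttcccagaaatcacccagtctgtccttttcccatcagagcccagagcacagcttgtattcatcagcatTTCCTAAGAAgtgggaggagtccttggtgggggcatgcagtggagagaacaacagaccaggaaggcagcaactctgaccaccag
Serpina3i held 1 match, TTCCTAAGAA, starting 34 bases before its start site, and no match was found in the windows of Serpina3n and Serpina3g. This pattern occurred in 6.95% of all 32851 windows of this length, searched on both strands. Among the 61 windows of the 52 Serpin genes with a window, it occurred in 6. A match is a description of letters and not a binding site. In a global alignment Serpina3i shared 64.5% of aligned columns with Serpina3n and 51.1% with Serpina3g, and Serpina3g shared 41.4% with Serpina3n. These alignments took 335, 372 and 399 columns, more than the bases of a window, and a column facing a gap counted as not shared. The stretch catttcctaag lies at the end of the Serpina3g window but further inside those of Serpina3n and Serpina3i, so the windows are offset. The values with Serpina3g therefore depend on where its start site was set. Identity over the overlapping part alone was not computed.

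Among the other plasma inhibitors, Serping1 encodes the C1 inhibitor, which blocks the first proteases of the complement cascade. It was at 23.0, 28.4 and 27.1 FPKM in controls, 23.4, 20.6 and 27.1 FPKM in eCRS and 51.7, 44.8 and 32.8 FPKM in eCRS_Exo. The eCRS_Exo libraries stood above all others as deposited, by 0.82 ± 0.20 against eCRS (adjusted p = 0.00285), but scaled the value was 0.13 ± 0.12 (adjusted p = 0.449). Scaled, the controls (30.0, 37.3 and 35.5) were above all eCRS (21.9, 28.9 and 27.9) and all eCRS_Exo libraries (29.6, 28.1 and 27.8), which overlapped each other, and eCRS_Exo against control was at -0.25 ± 0.12 (adjusted p = 0.134). Serpina1e, an alpha-1-antitrypsin copy, spread widely within groups: 0.453, 3.88 and 0.579 FPKM in controls, 0.662, 4.91 and 0.745 FPKM in eCRS and 8.39, 2.73 and 6.68 FPKM in eCRS_Exo. Library 2 was the highest of both the control and the eCRS group and the lowest of eCRS_Exo. As deposited Serpina1e rose by 1.32 ± 0.44 in eCRS_Exo against eCRS (adjusted p = 0.0154), a call lost without eCRS library 3 (adjusted p = 0.0605) or eCRS_Exo library 1 (adjusted p = 0.074) and on the scaled values (0.74 ± 0.68, adjusted p = 0.438). Its transcripts share 19.7% of 75-base windows with another gene, so its level is uncertain. Serpina1d stayed under the filter, at 0.939, 0.469 and 0.382 FPKM in controls, 0.478, 0.25 and 0.687 FPKM in eCRS and 0.31, 0.785 and 1.59 FPKM in eCRS_Exo, and these 3 groups overlapped. Serpina1b was at 0.0239, 0.0789 and 0.0941 FPKM, then 0.169, 0.272 and 0.279 FPKM, then 0.187, 0.166 and 0.41 FPKM. Serpina1d shares 37.1% and Serpina1b 19.0% of 75-base windows with another gene. Their loci also overlap each other on the same strand, so their levels are uncertain too.

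Many of these genes are best known from liver. The 5 hepatocyte markers Alb, Apoa2, Ttr, Fgb and Ahsg were all under the filter, Fgb was listed at 0 in all 9 libraries, and their summed level was 0.399 to 0.954 FPKM in controls, 1.32 to 1.59 FPKM in eCRS and 0.634 to 1.46 FPKM in eCRS_Exo. Serpina3n alone was thus well above the summed hepatocyte markers in every library.

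The intracellular clade B genes of leukocytes and many tissues number 15 here, of which 5 were tested and 6 were listed at 0 throughout. Serpinb1a rose with papain on both scales, and no other tested gene of this list was called in that comparison. Serpinb1a inhibits neutrophil elastase, proteinase 3 and cathepsin G, and is known to protect neutrophils and epithelium from them. It lies at chr13:32842092-32851185 (- strand), at 1 end of a cluster of 15 Serpin genes. Its level was 5.69, 5.59 and 7.59 FPKM in controls, 30.5, 17.0 and 29.9 FPKM in eCRS and 14.4, 14.6 and 11.0 FPKM in eCRS_Exo. The 3 groups did not overlap. Scaled, the controls were at 7.44, 7.32 and 9.92, eCRS at 28.5, 23.9 and 30.8 and eCRS_Exo at 8.26, 9.12 and 9.34, so that eCRS_Exo now lay within the control range.

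The papain change of Serpinb1a was 1.84 ± 0.22 as deposited (adjusted p = 2.2e-05) and 1.64 ± 0.13 scaled (adjusted p = 0.000113). With exosomes it fell by 0.87 ± 0.22 against papain alone (adjusted p = 0.00367), and the scaled change was -1.53 ± 0.13 (adjusted p = 0.000588). All 4 calls held when each library in turn was left out. Against control, eCRS_Exo was higher by 0.98 ± 0.22 as deposited (adjusted p = 0.00081), while scaled the difference was 0.11 ± 0.13 (adjusted p = 0.526). Beside this, the summed level of 5 neutrophil markers was 19.8 to 33.9 FPKM in controls, 38.6 to 92.2 FPKM in eCRS and 74.0 to 91.3 FPKM in eCRS_Exo, and all 5 passed the filter. Scaled, the neutrophil sums were 25.9 to 44.4, 54.4 to 94.9 and 42.4 to 77.6. By group means, most of the sum was S100a8 and S100a9. From eCRS to eCRS_Exo the means of S100a8 (22.6 to 32.1 FPKM), S100a9, Cxcr2 and Csf3r (1.67 to 4.01 FPKM) rose, while that of Retnlg fell (5.83 to 3.82 FPKM). With papain 3 of the 5 were called higher on each scale, where 3.01% and 5.77% of all tested genes were. In eCRS_Exo against eCRS 2 were called higher as deposited, and scaled 0 higher and 1 lower, where 63%, 13.4% and 16.2% of all were. The part of neutrophil number in the Serpinb1a level was not tested. Its close relative Serpinb1b, at 7.58 to 15.1 FPKM over all libraries, was called in no comparison on either scale.

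Serpinb6a, an intracellular inhibitor of cathepsin G and trypsin-like proteases, was one of the highest Serpin genes. It held 46.7, 39.2 and 40.5 FPKM in controls, 59.7, 43.2 and 51.5 FPKM in eCRS and 67.3, 63.9 and 61.7 FPKM in eCRS_Exo. The eCRS_Exo libraries were above all others as deposited. It rose by 0.60 ± 0.18 in eCRS_Exo against control (adjusted p = 0.00599), whereas scaled the value was -0.34 ± 0.12 (adjusted p = 0.0688). Its locus overlaps genes on the opposite strand, and without a stated strand setting their reads cannot be told apart.

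Serpinb9, the granzyme B inhibitor, and Serpinb6b, which inhibits granzyme A, were low, at 2.47 to 4.67 FPKM and 1.85 to 4.07 FPKM over all libraries. Both rose in eCRS_Exo against control as deposited, Serpinb9 by 0.54 ± 0.19 (adjusted p = 0.0125) and Serpinb6b by 0.66 ± 0.17 (adjusted p = 0.00238), while the scaled values were below 0 and not called, -0.20 ± 0.09 (adjusted p = 0.118) and -0.05 ± 0.17 (adjusted p = 0.854). The Serpinb9 call was lost without control library 2 (adjusted p = 0.0513) or eCRS_Exo library 2 (adjusted p = 0.0623). Of 5 cytotoxic lymphocyte markers, Nkg7, Gzmb and Prf1 were under the filter, and the summed level of the 5 was 1.48 to 2.49 FPKM in controls, 2.45 to 3.18 FPKM in eCRS and 3.17 to 7.21 FPKM in eCRS_Exo.

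**Figure D4:**
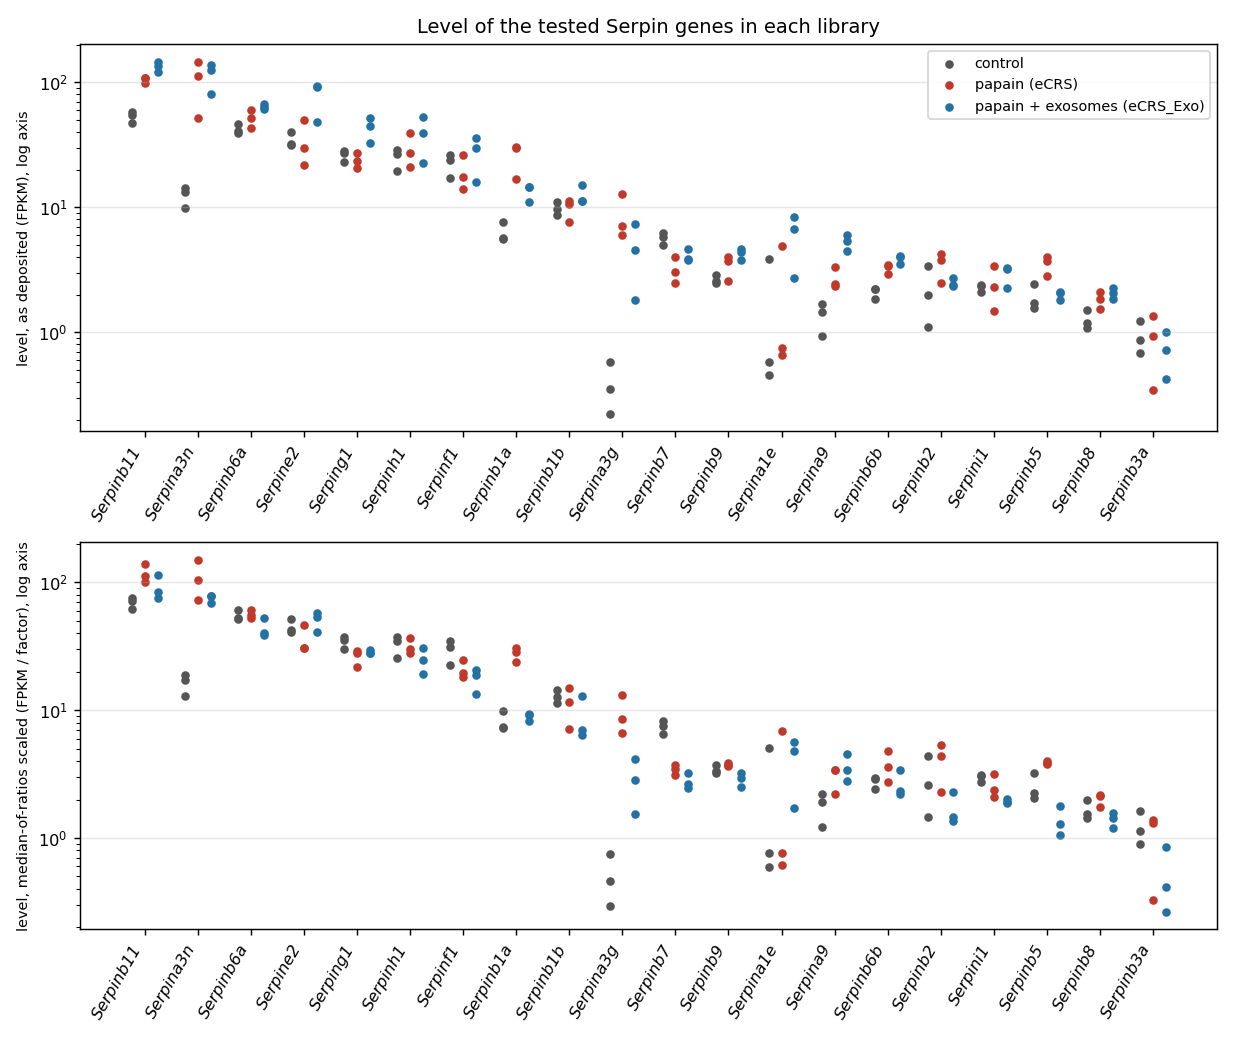
Level of the 20 Serpin genes tested as deposited, 1 point per library on a log axis, as deposited in FPKM (top) and scaled (bottom), with control in grey, eCRS in red and eCRS_Exo in blue. Serpinb1a shows 3 separate groups in the top panel, and in the bottom panel its eCRS_Exo points fall among the control points.

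The squamous and secretory epithelial clade B genes moved in different directions. Of these 9 genes 4 were tested, and 1 rose and 1 fell with papain on each scale. Serpinb11, an epithelial serpin encoded within a chromosome 1 cluster (chr1:106861173-107610484, 11 Serpin genes, 6 tested), had the highest mean level of the family. It was at 57.8, 47.2 and 54.9 FPKM in controls, 108, 99.0 and 109 FPKM in eCRS and 146, 121 and 135 FPKM in eCRS_Exo, and the 3 groups did not overlap. Scaled, the order changed: 75.6, 61.9 and 71.8 in controls, 101, 139 and 112 in eCRS and 83.6, 75.6 and 115 in eCRS_Exo, the last overlapping eCRS and reaching down to the top of the control range. The papain change was 0.97 ± 0.18 as deposited (adjusted p = 0.00261) and 0.74 ± 0.17 scaled (adjusted p = 0.0251). The scaled call was lost without any single control library, without eCRS library 2 or without eCRS library 3, with adjusted p between 0.0517 and 0.0947. It was also lost with the replicate number as a block (adjusted p = 0.0506). Beside Serpinb11, the 5 secretory markers summed to 821 to 1426 FPKM in controls, 3308 to 4499 FPKM in eCRS and 4610 to 6227 FPKM in eCRS_Exo. Most of each sum was Reg3g, with group means of 1092, 3915 and 5194 FPKM. Far lower were Muc5ac at 3.41, 23.9 and 41.0 FPKM, Muc5b at 4.84, 17.2 and 30.7 FPKM and Bpifb1 at 4.95, 24.8 and 57.8 FPKM. The 4 markers that were tested rose with papain on both scales, where 3.01% of all tested genes rose as deposited and 5.77% scaled. The part of secretory cells in the Serpinb11 level was not tested.

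Serpinb7, also called megsin and known from the outer skin, where its loss causes a palmoplantar keratoderma, was the tested Serpin gene that papain lowered. It held 6.25, 4.99 and 5.77 FPKM in controls, 3.99, 2.47 and 3.04 FPKM in eCRS and 4.60, 3.90 and 3.80 FPKM in eCRS_Exo. Controls were above all papain-treated libraries on both scales. The deposited change in eCRS against control was -0.69 ± 0.19 (adjusted p = 0.0477), and it missed the threshold without control library 1, 2 or 3, eCRS library 3 or eCRS_Exo library 2 (adjusted p from 0.0627 to 0.229). Scaled, it fell by 0.92 ± 0.11 (adjusted p = 0.00101), and the scaled change in eCRS_Exo against control was -1.16 ± 0.11 (adjusted p = 0.000468).

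Serpinb5, or maspin, a non-inhibitory member made by basal and squamous epithelium, was at 2.46, 1.56 and 1.73 FPKM in controls, 4.03, 2.84 and 3.73 FPKM in eCRS and 1.83, 2.05 and 2.11 FPKM in eCRS_Exo. The eCRS libraries were above all others. With exosomes against papain alone Serpinb5 fell by 0.59 ± 0.18 (adjusted p = 0.0109), the scaled change was -1.05 ± 0.14 (adjusted p = 0.0027), and both calls held when each library was left out. The papain change itself was not called, at 0.64 ± 0.18 as deposited (adjusted p = 0.0592) and 0.49 ± 0.14 scaled (adjusted p = 0.0579). Against control, eCRS_Exo was lower on the scaled values, with a change of -0.56 ± 0.14 (adjusted p = 0.0188), a call lost without control library 1 or eCRS_Exo library 1 or 2 (adjusted p from 0.057 to 0.0769), and was at 0.05 ± 0.18 as deposited (adjusted p = 0.794). The 6 squamous and basal epithelial markers summed to 31.9 to 61.8 FPKM in controls, 73.1 to 91.4 FPKM in eCRS and 63.3 to 84.9 FPKM in eCRS_Exo, and scaled to 41.8 to 80.7, 75.2 to 129 and 46.6 to 53.9. Within the sum the markers differed. From eCRS to eCRS_Exo the deposited mean of Krt5 rose from 17.7 to 26.5 FPKM and that of Krt4 from 7.35 to 8.63 FPKM. Those of Krt14 (22.1 to 14.4 FPKM), Krt13 (9.72 to 7.68 FPKM), Trp63 (3.35 to 2.96 FPKM) and Krt6a fell. In this comparison 0 were called higher on either scale. As deposited 2 were called lower and scaled 3, where 0.73% and 16.2% of all tested genes were. The part of squamous and basal cells in the Serpinb5 level was not tested. Serpinb3a, of the squamous cell carcinoma antigen group, was near the filter at 0.349 to 1.34 FPKM and was called in no comparison, and Serpinb12 was at 0.0969, 0 and 0.066 FPKM in controls, 0.167, 0.0742 and 0.115 FPKM in eCRS and 0.318, 0.255 and 0.253 FPKM in eCRS_Exo.

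Plasminogen activator and thrombin inhibitors of tissue numbered 7, of which 4 were tested. Papain called none of the 4 by limma, with adjusted p from 0.223 to 0.967 as deposited and from 0.286 to 0.424 scaled, and 1 as deposited and 0 scaled had an unadjusted p under 0.05. Serpine2, or protease nexin-1, which inhibits thrombin and urokinase, was at 31.5, 39.7 and 32.3 FPKM in controls, 50.1, 21.9 and 30.0 FPKM in eCRS and 93.6, 91.4 and 47.9 FPKM in eCRS_Exo. Libraries 1 and 2 of eCRS_Exo were above all others, and library 3 lay within the eCRS range. Serpine2 rose by 1.19 ± 0.27 against eCRS as deposited (adjusted p = 0.002), and scaled the value was 0.48 ± 0.18 (adjusted p = 0.0717).

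Serpinb2, which encodes PAI-2, an inhibitor of urokinase, and overlaps a neighbouring Serpin gene, ranged from 1.11 to 4.23 FPKM and was called in no comparison. Serpini1, or neuroserpin, an inhibitor of tissue plasminogen activator in neurons, ranged from 1.49 to 3.37 FPKM and fell by 0.43 ± 0.11 in eCRS_Exo against control on the scaled values (adjusted p = 0.0189). That call was lost without control library 2 or 3 or eCRS_Exo library 1 (adjusted p from 0.0505 to 0.0674). Serpinb8, an inhibitor of the proprotein convertase furin, ranged from 1.09 to 2.28 FPKM and rose by 0.44 ± 0.17 in eCRS_Exo against control as deposited (adjusted p = 0.0219), a call lost without control library 2 or 3 or eCRS_Exo library 2 (adjusted p from 0.0779 to 0.0981), while scaled the value was -0.14 ± 0.11.

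Of the 5 genes listed as hormone carriers or non-inhibitory, 2 were tested, and by limma papain called neither (at an unadjusted p under 0.05, 0 as deposited and 1 scaled). Serpinh1 encodes HSP47, the endoplasmic reticulum chaperone of collagen, and was at 19.7, 28.6 and 26.8 FPKM in controls, 39.6, 21.2 and 27.2 FPKM in eCRS and 53.3, 39.6 and 22.4 FPKM in eCRS_Exo. The 3 groups overlapped, and Serpinh1 was called in no comparison on either scale. Serpinf1 encodes PEDF, a secreted protein that restrains vessel growth, and was at 17.2, 26.4 and 23.9 FPKM in controls, 26.4, 13.9 and 17.6 FPKM in eCRS and 35.8, 30.0 and 15.9 FPKM in eCRS_Exo. It fell by 0.71 ± 0.19 in eCRS_Exo against control on the scaled values alone (adjusted p = 0.0242), a call lost without control library 2 (adjusted p = 0.0722), control library 3 (adjusted p = 0.0791) or eCRS_Exo library 3 (adjusted p = 0.0539). The deposited value was 0.21 ± 0.27 (adjusted p = 0.454). Library 3 was the lowest of the eCRS_Exo group for both genes as deposited. Beside them, 5 fibroblast markers summed to 492 to 688 in controls, 407 to 581 in eCRS and 274 to 461 in eCRS_Exo on the scaled values, and 376 to 526, 325 to 621 and 323 to 804 FPKM as deposited. Their means in control, eCRS and eCRS_Exo differed in order: Dcn 155, 104 and 128 FPKM, Col1a1 127, 109 and 169 FPKM, Col1a2 134, 183 and 238 FPKM. Lum was at 48.5, 48.8 and 64.9 FPKM and Pdgfra at 2.25, 2.59 and 2.83 FPKM. Scaled, 1 of the 5 was called lower with papain, where 4.15% of all tested genes were. Scaled, 3 were lower against eCRS and 3 against control in eCRS_Exo, where 16.2% and 15.6% of all were. The part of fibroblast number in the Serpinh1 and Serpinf1 levels was not tested.

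Serpina9, also called centerin and known from germinal centre B cells, stood outside the role lists. It was at 1.69, 0.932 and 1.47 FPKM in controls, 2.35, 2.42 and 3.31 FPKM in eCRS and 5.96, 4.48 and 5.36 FPKM in eCRS_Exo. The 3 groups did not overlap as deposited, but scaled the eCRS libraries (2.20, 3.41 and 3.41) overlapped both the controls (2.21, 1.22 and 1.92) and the eCRS_Exo libraries (3.42, 2.81 and 4.55). Against eCRS, eCRS_Exo was higher by 0.77 ± 0.19 as deposited (adjusted p = 0.00335), while scaled the value was 0.20 ± 0.19 (adjusted p = 0.457). In eCRS_Exo against control it rose by 1.41 ± 0.19 as deposited (adjusted p = 2.87e-05) and by 0.72 ± 0.19 scaled (adjusted p = 0.0205). The scaled call was lost without control library 2 (adjusted p = 0.0598) or eCRS_Exo library 1 (adjusted p = 0.0615). Against control, the papain value was 0.65 ± 0.19 as deposited (adjusted p = 0.0688).

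The proteases that serpins are known to inhibit, and their partners, were read from 2 further lists. Of 42 target proteases 23 were tested as deposited and 22 scaled, but Mcpt1 and Mcpt2 passed the filter only through the eCRS libraries and are left out of the counts. As deposited, by limma 5 of 21 were higher and 0 lower in eCRS against control, beside 3.01% and 0.518% of all tested genes (of all 23, 0 were lower at an unadjusted p under 0.05). In eCRS_Exo against eCRS 11 were higher and 0 lower, beside 63% and 0.73% of all, and in eCRS_Exo against control 18 were higher and 1 lower, beside 84.3% and 0.526%. Scaled, 3 of 20 were higher and 0 lower with papain (of all 22, 1 was lower unadjusted), beside 5.77% and 4.15% of all. In eCRS_Exo against eCRS 1 was higher and 3 lower, beside 13.4% and 16.2%, and against control 3 were higher and 3 lower, beside 12.3% and 15.6%. The mast cell chymase Mcpt1 was listed at 0 in the 3 controls, and was at 9.35, 14.9 and 3.68 FPKM in eCRS and 0.231, 0.55 and 0.44 FPKM in eCRS_Exo. Mcpt2 was at 0.0677, 0 and 0.0771 FPKM, then 7.03, 11.6 and 2.61 FPKM, then 0.474, 0.705 and 0.408 FPKM. For both genes every eCRS library was above every other library, which is given as a description with no test. Of 5 mast cell markers 4 were under the filter, and the 5 summed to 2.59 to 2.62 FPKM in controls, 3.53 to 7.99 FPKM in eCRS and 4.08 to 4.99 FPKM in eCRS_Exo. The markers differed within this sum. Kit, which passed the filter, had means of 1.32, 2.06 and 2.83 FPKM in control, eCRS and eCRS_Exo. The 4 under the filter had their highest mean in eCRS: Cpa3 0.351, 1.31 and 0.410 FPKM, Tpsb2 0.286, 0.943 and 0.370 FPKM, Mcpt4 0.247, 0.920 and 0.536 FPKM, Cma1 0.404, 0.860 and 0.508 FPKM. St14, the epithelial protease matriptase, rose with papain from 6.77, 6.23 and 5.33 FPKM to 18.7, 11.1 and 16.7 FPKM, a change of 1.19 ± 0.22 as deposited (adjusted p = 0.00239) and 0.99 ± 0.10 scaled (adjusted p = 0.00056).

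Of 15 partners, receptors and cofactors 13 were tested by limma: 2 rose and 0 fell with papain as deposited (6 and 0 at an unadjusted p under 0.05), and 4 rose and 0 fell scaled (5 and 0 unadjusted). In eCRS_Exo against eCRS 5 rose and 1 fell as deposited, and 0 rose and 6 fell scaled (0 and 7 unadjusted). In eCRS_Exo against control 11 rose and 0 fell as deposited (11 and 0 unadjusted), and 0 rose and 2 fell scaled (2 and 2 unadjusted). The shares of all tested genes given above for the target proteases apply here too, and 11 of 13 stands beside 84.3%. Plaur, the urokinase receptor, was at 1.35, 0.676 and 0.405 FPKM in controls, 4.58, 2.13 and 4.75 FPKM in eCRS and 2.34, 2.42 and 1.74 FPKM in eCRS_Exo. It rose with papain by 1.39 ± 0.23 (adjusted p = 0.00103) and 1.32 ± 0.21 scaled (adjusted p = 0.00431), and with exosomes fell by 0.56 ± 0.23 (adjusted p = 0.0426) or, scaled, -1.03 ± 0.21 (adjusted p = 0.00769). Plat, the tissue plasminogen activator that Serpine2 and Serpini1 inhibit, was at 12.6, 8.29 and 10.8 FPKM in eCRS and 26.2, 21.8 and 17.9 FPKM in eCRS_Exo. It rose on both scales, by 0.99 ± 0.20 (adjusted p = 0.00099) and 0.32 ± 0.08 (adjusted p = 0.0161).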

How the data were processed

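Nasal mucosa RNA was sequenced in 9 libraries, grouped by sample title. The authors deposited FPKM values for 21930 Ensembl identifiers. The submitters' processing notes name fastp 0.19.4, HISAT2, StringTie and the mm10 build; for other versions, the annotation and the strand setting, the sources used here give nothing. Since FPKM is a share of all fragments, abundant genes that change shift the values of the rest.

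Symbols matched 21817 identifiers. Genes with at least 1 FPKM in at least 3 libraries were tested with limma 3.58.1 (R 4.3.3; lmFit, eBayes with a mean-variance trend) on log2(FPKM + 1), all 9 libraries in 1 fit with 6 residual degrees of freedom, with Benjamini-Hochberg adjustment over all tested genes and calls at an adjusted p under 0.05. The same fit was made after median-of-ratios scaling over 16486 genes above 0 in every library. The script was tested on simulated data. Coordinates are GRCm38 (GENCODE M21), and promoter windows are RefSeq's, present for 52 members and absent for 9, among them Serpina10, Serpina3k, Serpina3m, Serpina6, Serpina9, Serpinb13, Serpinb1a and Serping1.

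Members and lists were chosen with earlier results of these data known. Genes described in full were tested members called in the same direction on both scales in at least 1 comparison, the 8 tested members of highest mean FPKM, and up to 6 members under the filter with the highest group mean; from the protease and partner lists, up to 4 per comparison called on both scales. Of the members under the filter, 1 is not reported here. Alternatives were a pseudocount of 0.1, no filter, a filter at 5 FPKM, the other scale, a replicate block, fits of 2 groups, no trend, an added minimum log2 change of 1 and each library left out.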

Additional observations from a re-analysis of the deposited data

How the results depend on the processing

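The counts of called members depended on the scale of the values, and the cause of the changes under the alternatives was not tested. With exosomes against papain alone, 4 higher and 3 lower members as deposited became 0 and 7 scaled, and against control 12 and 0 became 3 and 4. Values that changed sign, each as deposited and then scaled on the log2 scale, were the following. In eCRS against control they were Serpini1 0.020 and -0.17, Serpinh1 0.19 and -0.040. In eCRS_Exo against eCRS they were Serpinf1 0.45 and -0.24, Serpina3n 0.22 and -0.48, Serpinb8 0.12 and -0.33, Serpinb11 0.34 and -0.37, Serpini1 0.24 and -0.26, Serpinb6b 0.19 and -0.36, Serpinb9 0.26 and -0.29, Serpinb1b 0.32 and -0.33, Serpinb6a 0.33 and -0.38, Serpinb7 0.30 and -0.24, Serpinh1 0.34 and -0.35. In eCRS_Exo against control they were Serpinf1 0.21 and -0.71, Serping1 0.68 and -0.25, Serpinb8 0.44 and -0.14, Serpini1 0.26 and -0.43, Serpinb6b 0.66 and -0.047, Serpinb9 0.54 and -0.20, Serpinb1b 0.31 and -0.56, Serpinb6a 0.60 and -0.34, Serpinb2 0.20 and -0.44, Serpinb5 0.051 and -0.56, Serpinh1 0.54 and -0.39. Each of these was called on at most 1 of the scales.

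As deposited, the 1 lower member with papain was lost with no filter, with a filter at 5 FPKM and with a minimum log2 change of 1, each leaving 0. For exosomes against papain alone, as deposited, no filter gave 6 lower, the 5 FPKM filter gave 2 higher, and the minimum change gave 2 higher and 0 lower. For exosomes against control, as deposited, the 5 FPKM filter gave 7 higher, the minimum change 6 higher, and the fit of the 2 groups 1 lower. Scaled, the minimum change gave 0 lower with papain, 3 lower with exosomes against papain alone and 1 lower against control, and the 5 FPKM filter gave 3 and 2 lower in the last 2. The median library held 17, 21 and 19 members at 1 FPKM or more in control, eCRS and eCRS_Exo, and 10, 10 and 11 at 5 FPKM. The pseudocount of 0.1 and the fit without a trend moved no count by over 1.5 times.

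Libraries with the same replicate number did not deviate together: their correlations ran from -0.34 to 0.14, so the numbers were not taken as pairs. A replicate block moved the scaled count of lower members with exosomes against papain alone from 7 to 4, Serpinb6a, Serpinb8 and Serpinb9 missing the threshold, and that of higher members with papain from 5 to 4, Serpinb11 missing it. It changed no other call. Leaving out each library in turn gave, as deposited, 4 to 6 higher and 0 to 1 lower members with papain, 3 to 6 and 2 to 4 with exosomes against papain alone, and 10 to 14 and 0 to 1 against control. Scaled, the ranges were 3 to 6 and 1 to 1, 0 to 1 and 3 to 11, and 2 to 3 and 2 to 5. The 11 arose without eCRS_Exo library 3. Log2 values that changed sign in this way had these ranges. In eCRS against control, as deposited: Serpina1e -0.39 to 0.77, Serpinb1b -0.11 to 0.15, Serpinb3a -0.16 to 0.15, Serpine2 -0.41 to 0.17, Serpinh1 -0.038 to 0.40, Serpini1 -0.18 to 0.22. In eCRS against control, scaled: Serpina1e -0.61 to 0.76, Serpinb1b -0.45 to 0.042, Serpinb3a -0.33 to 0.093, Serpinb6a -0.014 to 0.11, Serpinh1 -0.20 to 0.064. In eCRS_Exo against eCRS, as deposited: Serpina3n -0.20 to 0.53, Serpinb3a -0.32 to 0.023. In eCRS_Exo against control, as deposited: Serpinb2 -0.055 to 0.47, Serpinb5 -0.037 to 0.18, Serpinf1 -0.017 to 0.55. In eCRS_Exo against control, scaled: Serpinb6b -0.19 to 0.037. None of these was called over all 9 libraries. The reads behind each value were not counted, so the error of values under 1 FPKM is known only from the spread between libraries.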
